A study of Mus musculus with 4 samples.

Results

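The genes examined here encode the cadherin and catenin proteins of the adherens junction. They were the cadherins *Cdh2* and *Cdh4*, the β-catenin gene *Ctnnb1*, the α-catenins *Ctnna1* and *Ctnna2*, the p120 family genes *Ctnnd1* and *Ctnnd2*, and *Vcl* and *Mllt4*, which link the junction to actin. They were taken by gene symbol, 9 of the 23038 genes in the deposited tables. The identifier of the gene in the name of each splicing event gave 31 of 38240 events, in 8 of the 9 genes. *Vcl* had no event.

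Polyadenylated RNA of the cortex was sequenced at E14.5, a stage of neurogenesis, from 2 control and 2 *Qk* cKO embryos, described in the paper as littermates. Control embryos were *Qk* fl/fl, named wild type in the labels, and *Qk* cKO embryos were *Nestin*-Cre *Qk* fl/fl, so that both groups carried loxP-flanked *Qk* alleles. *Nestin*-Cre acts in neural progenitor cells and their descendants, and vessels and meninges in the dissected tissue keep *Qk*. The labels give neither strain nor sex. *Qk* encodes the RNA-binding proteins of the Quaking family, which regulate splicing in the nucleus and the stability of mRNA in the cytoplasm.

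In the embryonic cortex, radial glia are joined by a belt of adherens junctions at the ventricular surface. The extracellular parts of classical cadherins bind those of the neighbouring cell. Inside the cell, p120-catenin binds the cadherin tail close to the membrane and holds the cadherin at the surface, while β-catenin binds further along the tail. α-catenin joins β-catenin to actin filaments and recruits vinculin when it is under tension, and afadin, the product of *Mllt4*, connects nectins to actin at the same belt. β-catenin also acts as a transcriptional coactivator in Wnt signalling.

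The 4 libraries held between 37942046 and 42994832 tags, a tag being the unit of fragments that was assigned to genes, and between 17555 and 17676 genes had tags. The junction of *Qk* exon 2 with exon 3 had 635 and 565 tags in the controls and 63 and 68 in *Qk* cKO. The junction of exon 3 with exon 4 had 574 and 439.4 tags in the controls and 897.5 and 830.3 in *Qk* cKO. Per tag of this second junction, the value of the first in *Qk* cKO was 6.4% of control. That ratio holds both the fall of the first junction and the rise of the second. The 9 listed radial glia markers summed to 1651 and 1530 RPKM in the controls and to 1350 and 1286 in *Qk* cKO. Of these, 4 were lower and 2 higher in both *Qk* cKO libraries than in both controls, and *Fabp7* made up most of the sum (989 and 901 against 703 and 667 RPKM). All 8 markers of hypothalamus and diencephalon were lower in both *Qk* cKO libraries, with sums of 11.5 and 17.5 against 8.43 and 8.11 RPKM. *Nkx2-1* was the largest part of this sum in each library (6.79 and 7.26 against 5.94 and 6.31 RPKM). The other markers of this list are among the transcripts that the paper reports as changed in these libraries. Their difference was therefore known beforehand and is no separate result. The 4 intermediate progenitor markers summed to 119.7 and 113.5 RPKM in the controls and to 110.6 and 111.7 in *Qk* cKO, and 2 of them were lower in both *Qk* cKO libraries. The 7 cortical neuron markers found summed to 1111 and 1144 RPKM in the controls and to 1096 and 1044 in *Qk* cKO. Of these 7, none was lower and 1 higher in both *Qk* cKO libraries than in both controls. *Tubb3* made up most of their sum (765 and 833 against 779 and 676 RPKM) and overlapped between the groups. The 6 markers of interneurons and subpallium summed to 145 and 153 RPKM in the controls and to 154 and 156 in *Qk* cKO, and 4 of them were higher in both *Qk* cKO libraries. Endothelial markers summed to between 62.2 and 73.6 RPKM, with overlapping groups. For comparison with these counts, 36.9% of all 18834 genes tested for level were above or below both controls in both *Qk* cKO libraries. No listed marker was at 0 in all libraries. In dissected tissue, fewer cells of a type and less RNA per cell cannot be told apart.

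The levels of the 9 genes in control and *Qk* cKO cortex were compared first. No member was called different, by a p below 0.01 and an FDR below 0.1 in the quasi-likelihood test of edgeR over 18834 genes. All 9 members were tested, and the test called 0.584% of all genes tested. The count of called members was also 0 by DESeq2 and by the exact test of edgeR. In the quasi-likelihood test 1 member (*Ctnnd2*) had an unadjusted p below 0.05, as had 1650 of all 18834 genes tested. The median log2 fold change of the 9 members was 0.034, beside -0.0025 over all genes tested. Both *Qk* cKO libraries were above both controls or below both in 3 of the 9 members, and in 36.9% of all genes tested.

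Among the cadherins, *Cdh2*, which encodes the N-cadherin of neural stem cells, had a level of 107 and 110 RPKM in the controls and 112 and 115 in *Qk* cKO. Both *Qk* cKO libraries were slightly higher than both controls. The log2 fold change was 0.081 (SE 0.075), with a 95% interval of -5.03 to 17.8% around the change in level. *Cdh4*, which encodes R-cadherin, had 21.5 and 21.6 RPKM in the controls and 19.0 and 21.7 in *Qk* cKO. The groups overlapped, since the second *Qk* cKO library was the highest and the first the lowest. The log2 fold change of *Cdh4* was -0.069 (SE 0.059).

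*Ctnnb1* had the highest level of the members, 334 and 344 RPKM in the controls and 339 and 330 in *Qk* cKO, and ranked 111 of 23038 genes by mean RPKM. Its groups overlapped, and its log2 fold change was -0.0055 (SE 0.080), with a 95% interval of -11.2 to 11.8%. *Ctnna1*, the widely expressed α-catenin, had 59.7 and 56.5 RPKM in the controls and 58.1 and 59.8 in *Qk* cKO. *Ctnna2*, the neural α-catenin, had 85.5 and 84.2 RPKM in the controls and 86.4 and 80.8 in *Qk* cKO. Both α-catenins overlapped between the groups, with log2 fold changes of 0.034 (SE 0.061) and -0.0074 (SE 0.073).

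*Ctnnd1* encodes p120-catenin. Its level was 39.0 and 40.1 RPKM in the controls and 42.1 and 41.1 in *Qk* cKO, higher in both *Qk* cKO libraries, with a log2 fold change of 0.087 (SE 0.064). *Ctnnd2* encodes δ-catenin, the form of the p120 family that is found mainly in neurons. It had 30.6 and 31.2 RPKM in the controls and 26.6 and 27.9 in *Qk* cKO, and both *Qk* cKO libraries were below both controls. The log2 fold change of *Ctnnd2* was -0.17 (SE 0.052), with a 95% interval of -17.3 to -4.03%. Its edgeR p of 0.0041 gave an FDR of 0.249, which misses the threshold, and over the 9 alternatives the FDR was between 0.222 and 0.92. The sums of the radial glia, intermediate progenitor and cortical neuron markers given above were also lower in both *Qk* cKO libraries, and that of the interneuron markers higher. The radial glia sum was carried mostly by *Fabp7*, and *Vim*, the next highest marker, overlapped between the groups. The cortical neuron sum was carried mostly by *Tubb3*, which overlapped between the groups. Of the 9 radial glia markers 4 were lower and 2 higher, and of the 7 cortical neuron markers none was lower. The part of these markers in the value of *Ctnnd2* was not tested.

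Of the actin linkers, *Vcl* (vinculin) had the lowest level of the members, 7.53 and 7.04 RPKM in the controls and 7.11 and 7.92 in *Qk* cKO. *Mllt4*, which encodes afadin, had 44.3 and 47.4 RPKM in the controls and 46.5 and 47.6 in *Qk* cKO. Both genes overlapped between the groups. The log2 fold changes were 0.057 (SE 0.083) and 0.050 (SE 0.074), with 95% intervals of -7.68 to 17.2% for *Vcl* and -6.96 to 15.2% for *Mllt4*.

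**Figure D1:**
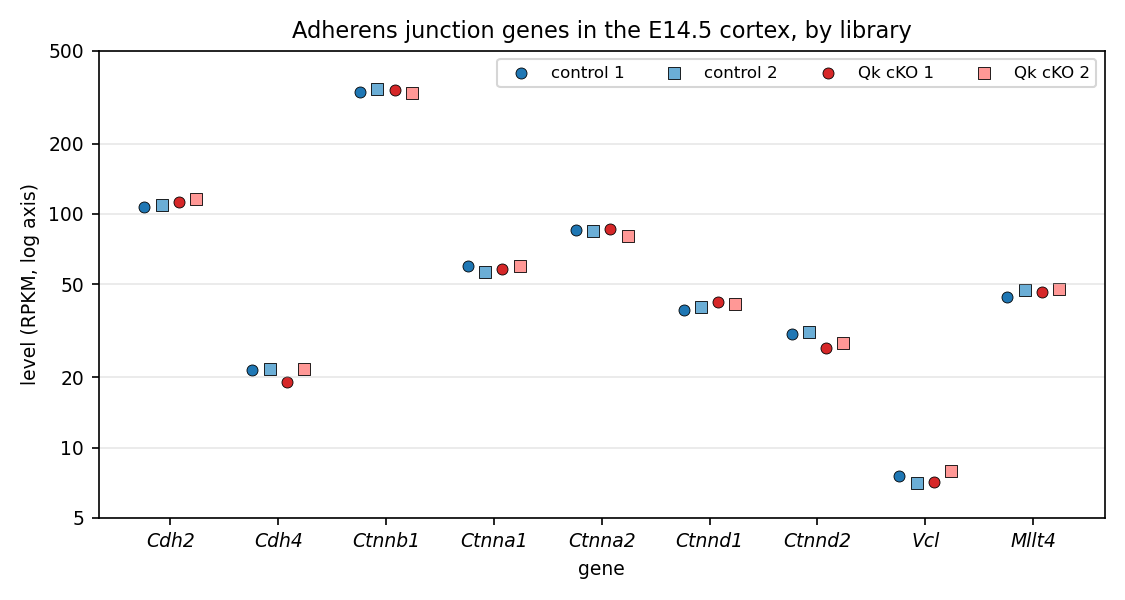
Level of the 9 genes in RPKM on a log axis, with 1 point for each library (blue, control, red, *Qk* cKO). Differences between genes exceed those between libraries, from 7.04 to 7.92 RPKM for *Vcl* up to 330 to 344 RPKM for *Ctnnb1*.

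Per length of transcript, the order of levels was *Ctnnb1*, *Cdh2*, *Ctnna2*, *Ctnna1*, *Mllt4*, *Ctnnd1*, *Ctnnd2*, *Cdh4* and *Vcl* in each of the 4 libraries. The ranges over the 4 libraries did not overlap between neighbours in this order, the nearest being *Ctnnd1* with a highest value of 42.1 RPKM and *Mllt4* with a lowest of 44.3 RPKM. These levels were not tested between genes. Relative to *Ctnna1*, the level of *Ctnna2* was 1.43 and 1.49 in the controls and 1.49 and 1.35 in *Qk* cKO. *Ctnnd1* relative to *Ctnnd2* was 1.27 and 1.28 in the controls and 1.58 and 1.47 in *Qk* cKO, so that p120-catenin transcripts exceeded those of δ-catenin in every library and by more in *Qk* cKO. The difference of this ratio was 0.25 on the log2 scale (two-sided exact permutation p = 0.333, the smallest value that 2 against 2 libraries allow). For *Cdh2* relative to *Cdh4* the ratio was 4.99 and 5.07 in the controls and 5.89 and 5.31 in *Qk* cKO, a difference of 0.15 on the log2 scale with the same exact permutation p of 0.333.

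**Figure D2:**
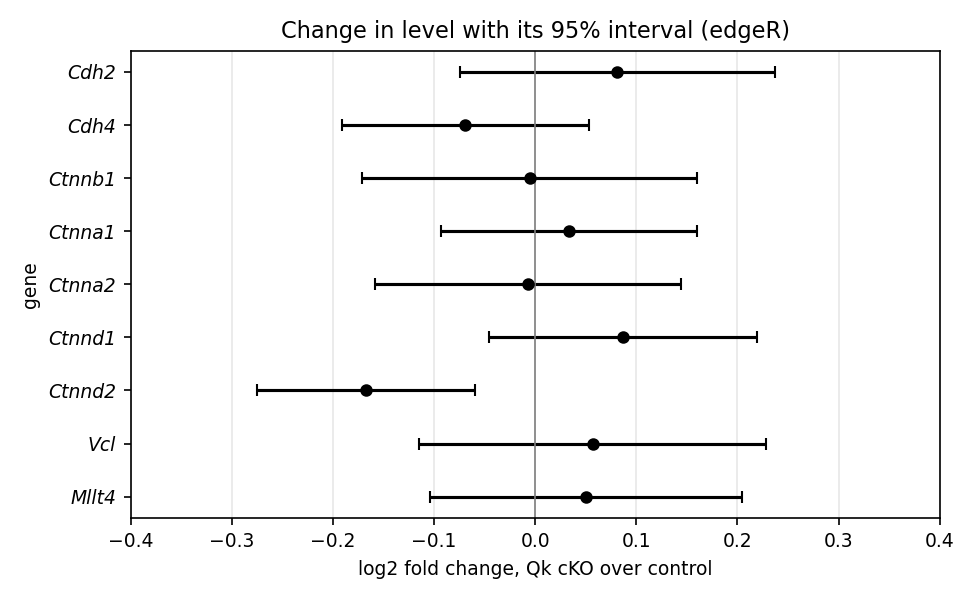
Log2 fold change of the level of each gene, *Qk* cKO over control, as a point with its 95% interval from the edgeR quasi-likelihood fit (horizontal axis), by gene (vertical axis). The interval of *Ctnnd2* lies below 0, the other 8 include 0, and no gene had an FDR below 0.1.

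Genes with related functions were read from the same edgeR fit, in 6 lists of 90 genes. Of these 90 genes, 1 was called, and 6 had an unadjusted p below 0.05. Of all 18834 genes tested, 110 were called and 1650 had such a p. None of the 17 other cadherins was called, and their median log2 fold change was 0.062. Of these, *Cdh8* had a log2 fold change of -0.29 (SE 0.089) and an edgeR FDR of 0.249, and *Cdh13*, the cadherin that lacks a cytoplasmic tail, 0.16 (SE 0.056) and 0.353. Of the 8 other catenin-family genes none was called, with a median of -0.0042. Plakoglobin (*Jup*) had a log2 fold change of -0.31 (SE 0.099, edgeR FDR 0.285) and *Ctnnal1*, which encodes α-catulin, 0.34 (SE 0.12, edgeR FDR 0.319). Without the first *Qk* cKO library, edgeR called *Cdh8* (-0.41, FDR 0.0242) and *Jup* (-0.41, FDR 0.0406). *Cdh8* had -0.21 without the second control (FDR 0.92) and -0.18 without the second *Qk* cKO library (FDR 0.873). *Jup* had -0.15 without the second control (FDR 0.92) and -0.21 without the second *Qk* cKO library (FDR 0.81). *Ctnnal1* had 0.21 without the second control (FDR 0.92).

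The nectins bind afadin, and 1 of the 4 was called. *Pvrl3*, which encodes nectin-3, had 7.30 and 6.92 RPKM in the controls and 4.72 and 5.47 in *Qk* cKO. It fell by 0.47 on the log2 scale (SE 0.11, edgeR FDR 0.0947), and both *Qk* cKO libraries were below both controls. The FDR was close to the threshold of 0.1, and the call was lost in the exact test of edgeR (FDR 0.158), after the stronger filter on low counts (0.314), and without the first control (0.532), the second control (0.92) or the first *Qk* cKO library (0.187). All 4 nectins had negative fold changes, with a median of -0.22, while 49.5% of all genes tested were above 0. The share above 0 was 76.5% in the other cadherins and 50% in the other catenin-family genes. It was 50% in the junction and actin adaptors, 29.4% in the apical polarity genes and 25% in the β-catenin signalling genes.

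None of the 20 junction and actin adaptors, of the 17 genes of apical polarity or of the 24 genes of β-catenin signalling was called. Their medians were -0.019, -0.067 and -0.066. The lowest p of the adaptors belonged to *Plekha7*, which binds p120-catenin (log2 fold change -0.17, edgeR FDR 0.727). The lowest p of the polarity genes belonged to *Pard3b* (-0.23, edgeR FDR 0.572) and *Crb1* (-0.34, edgeR FDR 0.688), and *Crb1* moved between -0.61 without the first *Qk* cKO library and -0.12 without the second. Of the β-catenin signalling genes, *Nkd1*, a Wnt antagonist, had a log2 fold change of -0.18 (edgeR FDR 0.579). *Tcf7l2*, a DNA-binding partner of β-catenin, had 6.58 and 16.7 RPKM in the controls and 6.99 and 1.57 in *Qk* cKO. Its libraries overlapped between the groups and its log2 fold change of -1.42 had an edgeR FDR of 0.179. The value depended on single libraries, with a log2 fold change of -2.89 (FDR 8.2e-19) without the first *Qk* cKO library, -0.71 (FDR 0.11) without the second, -1.94 (FDR 0.53) without the first control and -0.61 (FDR 0.923) without the second. The second control, where *Tcf7l2* was highest, also had the highest sum of hypothalamus and diencephalon markers (17.5 RPKM, against 11.5 in the first control). The *Qk* cKO libraries differed in *Tcf7l2* but had similar sums of 8.43 and 8.11 RPKM. *Nkx2-1* was the largest part of the sum in each library. The part of these markers in the value of *Tcf7l2* was not tested.

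Splicing of the members was compared next. The 31 events were 12 alternative 3′ splice sites, 5 alternative 5′ splice sites, 13 cassette exons and 1 tandem cassette. Of these, 19 events in 6 members had a coverage of at least 20 tags, the minimum for the test, and the coverage of the tested events was 35.2 to 657 tags. They were 9 events of *Ctnnd1*, 5 of *Mllt4*, 2 of *Ctnna2* and 1 each of *Cdh2*, *Ctnnb1* and *Ctnnd2*. Events that share a splice site can hold the same tags, and the 19 tested events comprised 16 distinct sets of tags. The following sequences are those of the exons called by the test and of the other coding exons described in detail. They are taken from the GENCODE M21 transcripts on GRCm38 and run 5′ to 3′ on the strand of the gene, with the alternative exon in capitals and 30 nt of each neighbouring exon in lower case.
Ctnnd1 18-nt exon, included: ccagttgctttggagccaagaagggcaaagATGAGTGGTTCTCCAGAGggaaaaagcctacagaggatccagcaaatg
Ctnnd1 18-nt exon, skipped: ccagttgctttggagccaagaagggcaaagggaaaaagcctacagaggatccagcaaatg
Ctnna2 144-nt exon, included: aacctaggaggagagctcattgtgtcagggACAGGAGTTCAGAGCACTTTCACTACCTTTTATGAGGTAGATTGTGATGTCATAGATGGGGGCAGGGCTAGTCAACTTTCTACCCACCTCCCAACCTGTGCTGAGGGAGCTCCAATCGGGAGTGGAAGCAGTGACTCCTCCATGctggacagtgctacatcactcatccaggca
Ctnna2 144-nt exon, skipped: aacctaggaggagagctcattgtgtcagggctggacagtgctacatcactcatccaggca
Ctnnd1 63-nt exon, included: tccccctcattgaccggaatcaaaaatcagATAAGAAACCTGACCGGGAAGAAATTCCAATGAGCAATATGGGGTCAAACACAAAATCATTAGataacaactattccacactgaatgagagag
Ctnnd2 75-nt exon, included: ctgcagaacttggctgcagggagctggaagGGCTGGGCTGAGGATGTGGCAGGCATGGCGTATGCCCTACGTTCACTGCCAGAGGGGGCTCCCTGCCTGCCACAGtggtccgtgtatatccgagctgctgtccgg
Mllt4 36-nt exon, included: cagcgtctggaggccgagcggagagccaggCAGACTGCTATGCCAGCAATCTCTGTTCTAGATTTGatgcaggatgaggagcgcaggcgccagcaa
Mllt4 45-nt exon, included: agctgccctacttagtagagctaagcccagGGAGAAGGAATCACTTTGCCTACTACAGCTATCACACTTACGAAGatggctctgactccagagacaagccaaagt

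These 6 exons lie within the coding sequence and each holds a whole number of codons, so that the included and the skipped form share a reading frame on both sides. Over all tested cassette exons of the members, 7 of 10 had a length that is a multiple of 3, as had 52.9% of the 4596 tested cassette exons of all genes with a stated length. The median length was 88.5 nt in the members and 94 nt in all genes.

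Fisher's exact test was run on the tags of each isoform, summed over the libraries of a group. At a p below 0.01 and an FDR below 0.1 within the type of event, it called 2 of the 19 events. It called 7.5% of all 11500 tested events. Both called events were cassette exons with lower inclusion in *Qk* cKO, and they were 2 of 10 tested cassette exons of the members, where 9.28% of all tested cassette exons were called. This test leaves out the spread between embryos. The interaction test of edgeR, which uses that spread, called none of the 19 events and 0.557% of all tested events. In it 2 of the 19 had an unadjusted p below 0.05, as had 824 of all 11500 tested events. Inclusion was higher or lower in both *Qk* cKO libraries than in both controls in 5 of the 19 events and in 37.9% of all tested events with a value in each library. The median absolute change of inclusion was 1.65 percentage points in the 19 events and 2.56 in all tested events.

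The 18-nt exon of *Ctnnd1* (chr2:84612532-84612549, minus strand) holds 6 codons and is known as exon C of p120-catenin. The intron before it has 386 nt and the intron after it 439 nt, and 10 annotated transcripts contain the exon while 15 skip it. Skipping junction tags numbered 29.7 and 26.3 in the controls and 59.0 and 63.6 in *Qk* cKO. Tags of the junction into the exon numbered 161 and 135 in the controls and 151 and 151 in *Qk* cKO, and tags of the junction out of it 172 and 143 against 170 and 167. The skipping tags thus separated the groups, while the inclusion tags overlapped.

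Inclusion is the mean of both inclusion junctions as a share of that mean and the skipping junction. For the 18-nt exon it was 84.8% (95% Wilson interval 79.0 to 89.1) and 84.0% (77.9 to 89.0) in the controls and 73.1% (66.8 to 78.5) and 71.5% (65.0 to 76.8) in *Qk* cKO. Both *Qk* cKO libraries were below both controls. The group means were 84.4% ± 0.559 (SD, n = 2) and 72.3% ± 1.16 (SD, n = 2). The inclusion of the summed junction tags fell by 12.2 percentage points. On the isoform tags, which are other counts, Fisher's exact test gave p = 1.3e-05 and an FDR of 0.00063. In the edgeR interaction test the p was 0.0034 and the FDR 0.209, which misses the threshold. The call was kept by Fisher's exact test on junction tags only (FDR 0.00041). It was also kept by the Cochran-Mantel-Haenszel test, which blocks on the replicate number (FDR 0.0011). The other coverage minimums and the adjustment over all types kept the call but left the p unchanged. The mean of replicates reused both p and FDR, so it could not lose the call. With each library left out in turn, the change stayed between -13 and -11.4 points. A change of at least 12.2 points was measured in 9.5% of all tested cassette exons. The median absolute change of the 427 called cassette exons was 10.8 points.

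The 144-nt exon of *Ctnna2* (chr6:76902287-76902430, minus strand) holds 48 codons and gives the longer of the isoforms of αN-catenin. It is exon 18 of transcript Ctnna2-202, between introns of 13303 and 19449 nt. Skipping tags numbered 44.3 and 46.2 in the controls and 74 and 70.2 in *Qk* cKO. The junction into the exon had fewer tags than the junction out of it in each library, 165 against 307 in the first control and 197 against 250 in the second, and 233 against 296 and 188 against 272 in *Qk* cKO. Inclusion was 84.2% (79.6 to 88.1) and 82.9% (77.9 to 86.9) in the controls and 78.1% (73.4 to 82.2) and 76.6% (71.6 to 81.1) in *Qk* cKO. Both *Qk* cKO libraries were below both controls, with group means of 83.5% ± 0.926 and 77.4% ± 1.10 (SD, n = 2 each). The inclusion of the summed junction tags fell by 6.13 points (Fisher's exact test on isoform tags p = 0.0021, FDR 0.0366). This call was lost in the edgeR interaction test (p = 0.020, FDR 0.431) and also, by Fisher's exact test, without the first control (FDR 0.259), without the first *Qk* cKO library (0.105) and without the second (0.128), while the change stayed between -6.95 and -5.40 points. A change of at least this size was measured in 26.4% of all tested cassette exons. The summed level of the radial glia markers, carried mostly by *Fabp7*, was lower in the same libraries. *Vim*, the next highest of them, overlapped between the groups, and 4 of the 9 were lower and 2 higher. The cortical neuron and interneuron sums differed as given above. The part of these markers in the changes of both exons was not tested.

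**Figure D3:**
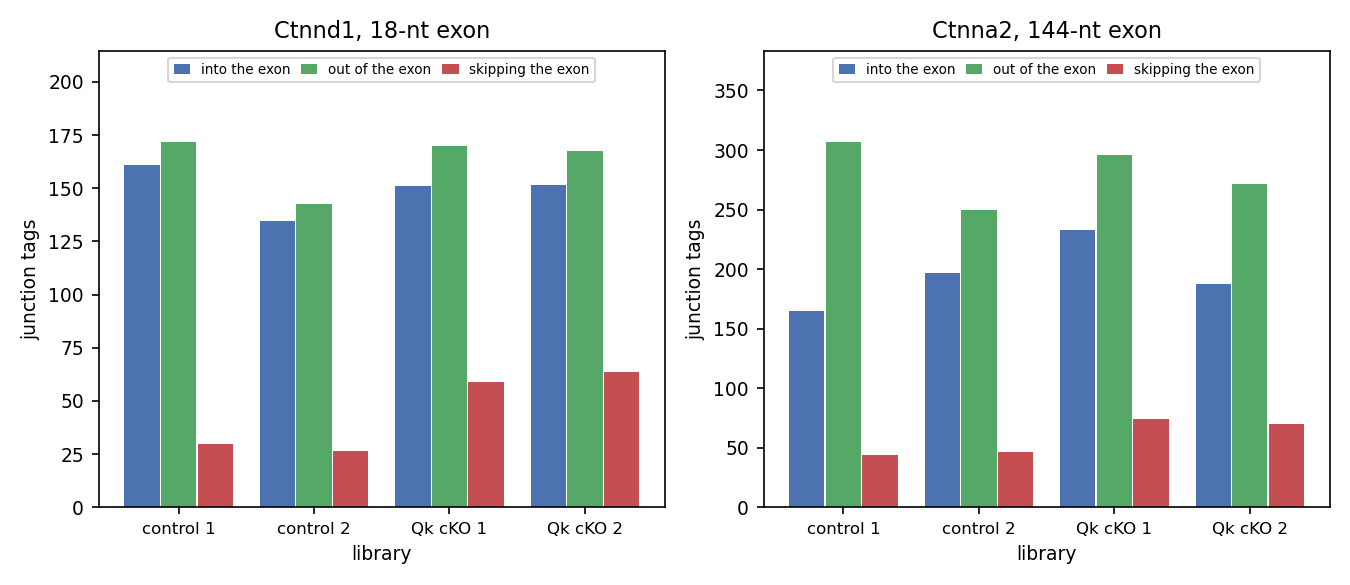
Junction tags (vertical axis, from 0) into, out of and skipping the 18-nt exon of *Ctnnd1* (left) and the 144-nt exon of *Ctnna2* (right) in each library (horizontal axis). Skipping tags are higher in both *Qk* cKO libraries, at 59.0 and 63.6 against 29.7 and 26.3 for *Ctnnd1* and 74 and 70.2 against 44.3 and 46.2 for *Ctnna2*.

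The other tested events were not called, with changes between -2.38 and 6.08 points. Their lowest FDR was 0.191 in Fisher's exact test on isoform tags. In *Mllt4* the smallest p belonged to the 36-nt exon (chr17:13890963-13890998, plus strand, 12 codons). Its inclusion was 62.1% and 49.2% in the controls and 62.2% and 57.7% in *Qk* cKO, and the p was 0.026 and the FDR 0.191 in Fisher's exact test. The controls differed from each other by more than the groups did, and their Wilson intervals of 57.0 to 67.0 and 43.8 to 54.4 did not overlap. Without the first control this exon was called as higher in *Qk* cKO by 10.9 points (FDR 0.0076), and without the second control the change was -2.03 points. The 45-nt exon of *Mllt4* (chr17:13825943-13825987, plus strand, 15 codons), chosen after its values were seen, had an inclusion of 46.6% and 62.3% in the controls and 52.5% and 51.4% in *Qk* cKO. Its controls also differed beyond their Wilson intervals (41.2 to 52.2 and 56.7 to 67.5), in the opposite direction to the 36-nt exon. Without the first control it was called with a change of -10.2 points (FDR 0.0185), and without the second it was higher by 5.39 points (FDR 0.64).

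In *Ctnnd2*, the tested event was a 75-nt exon (chr15:30920712-30920786, plus strand, 25 codons) that was skipped in most transcripts. Its inclusion was 22.7% and 19.2% in the controls and 24.3% and 29.2% in *Qk* cKO. Both *Qk* cKO libraries were higher, and the change of 5.88 points was not called (Fisher's exact test p = 0.078, FDR 0.351). It was 3.36 points without the second *Qk* cKO library, and between 4.10 and 8.24 points without any other library. The group means of 20.9% ± 2.47 and 26.7% ± 3.45 (SD, n = 2 each) differed in the opposite direction to the means of its level.

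*Ctnnd1* had further alternative exons, described here after their values were seen. The 63-nt exon (chr2:84605184-84605246, minus strand), exon A of p120-catenin with 21 codons, had an inclusion of 51.7% and 44.4% in the controls and 56.8% and 52.2% in *Qk* cKO. Both *Qk* cKO libraries were higher, the second by less than 1 point over the first control, and the change of 6.08 points was not called (Fisher's exact test p = 0.046, FDR 0.264). On junction tags only, Fisher's exact test gave p = 0.0106 and an FDR of 0.0982, so that the p missed the threshold of 0.01. The change was 10.2 points without the first control, 2.89 without the second control and 3.67 without the first *Qk* cKO library. The 87-nt exon B (chr2:84603188-84603274, minus strand, 29 codons) had an inclusion of 0.00424% and 0.351% in the controls and 0.326% and 1.34% in *Qk* cKO. Its coverage of 6.12 tags was below the minimum, and the upper Wilson bounds were between 2.17 and 4.73%. Tags of its included isoform numbered 13.0 and 20 in the controls and 59.0 and 45.0 in *Qk* cKO, a difference that was not tested. By junction tags, the *Ctnnd1* transcripts of this tissue held exon C mostly, exon A in part and exon B rarely, in both groups.

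At the 5′ end of *Ctnnd1*, a 118-nt exon without coding sequence had an inclusion of 36.2% and 43.8% in the controls and 46.7% and 31.0% in *Qk* cKO. The *Qk* cKO libraries were the highest and the lowest of the 4. It was called without the first *Qk* cKO library, with a change of -9.04 points (FDR 0.0758), and the change was 6.62 points without the second. The 289-nt exon, of which 195 nt are coding in transcript Ctnnd1-202, was included at between 90.0 and 95.1% in all libraries. A 182-nt form of it rested almost wholly on the downstream junction, with at most 1.39 tags on its own upstream junction, and was listed at 85.4 to 92.3%.

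**Figure D4:**
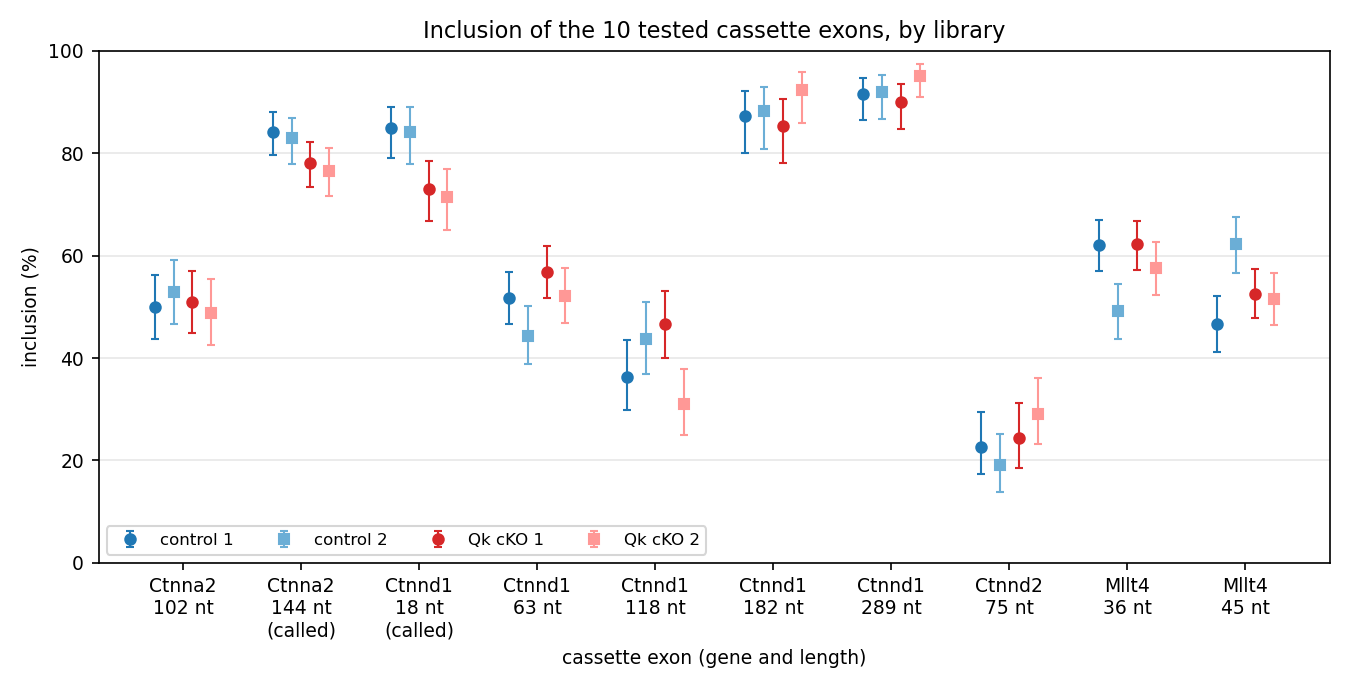
Inclusion in percent (vertical axis) of the 10 tested cassette exons (horizontal axis, by gene and length), with 1 point and its 95% Wilson interval for each library (blue, control, red, *Qk* cKO). The 18-nt exon of *Ctnnd1* and the 144-nt exon of *Ctnna2* are lower in both *Qk* cKO libraries, and the controls of both *Mllt4* exons lie apart.

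Of the 12 alternative 3′ splice sites, 7 events in 3 members had sites only 3 nt apart, and all 7 were tested. In *Ctnnb1* the main site was used at 99.4% and 99.5% in the controls and 99.7% and 99.2% in *Qk* cKO, with a p of 1 in Fisher's exact test. In *Mllt4* the longer form made up 52.3% and 45.8% in the controls and 52.8% and 52.7% in *Qk* cKO at the upstream pair of sites (p = 0.286 in Fisher's exact test), and between 65.1 and 66.4% in all libraries at the other. In *Ctnnd1* it made up 85.9% and 88.8% in the controls and 89.5% and 81.5% in *Qk* cKO. The tested event of *Cdh2* was an alternative 3′ splice site 71 nt away, and the main site was used at 99.2% and 99.5% in the controls and 98.5% and 99.3% in *Qk* cKO, with a p of 0.090 and an FDR of 0.40 in Fisher's exact test.

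The 12 events that were not tested had a coverage of 0 to 9.24 tags, because the minor form was rare or the tags were few. In *Cdh4*, a 24-nt exon was included at 0.021% or less in each library, and an alternative 3′ splice site at 0.414% or less. In *Ctnna1*, the main 3′ splice sites were used at 99.16% or more in each library. A 32-nt exon of *Ctnnd2*, whose length is not a multiple of 3, was included at 99.2% and 99.6% in the controls and 96.4% and 99.4% in *Qk* cKO. A difference between the groups was not tested for these events.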

How the data were processed

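Reads were aligned by the authors to mm10 and exon junctions with OLego, and Quantas assigned fragments to genes and isoforms. The authors deposited an estimated count of tags per gene, not always whole, with its RPKM, and estimated counts of tags on each isoform and junction of each event. Tags were rounded and compared with edgeR 4.0.16 (R 4.3.3, TMM scaling) over genes with at least 1 tag in any library, and the SE comes from the F statistic. Events with at least 20 junction tags in each row and column sum were compared by Fisher's exact test (scipy 1.17.1) on isoform tags. Benjamini-Hochberg adjustment was made within each type. Wilson intervals use junction tags scaled to 1 junction and cover counting error only. The main tests were run on simulated data with known changes. For Fisher's exact test these data held counting error only. That run therefore does not cover its calls where embryos spread beyond counting error. Exons were located in GENCODE M21 on GRCm38, the build of mm10, where *Mllt4* is named *Afdn*, with positions counted from 1.

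The members and lists were chosen with earlier results of these data known. Named were all members, called events, the tested event with the smallest Fisher p in each member, called list genes, and otherwise the 2 genes of a list with the smallest p. A gene that these criteria name is not reported here. The QKI motif beside the exons needs intron sequence and was not analysed here. The paper's methods give 3 replicates and the labels 2. The p-values of edgeR and DESeq2 measure the spread between these libraries. Those of Fisher's exact test leave it out. Alternatives were upper-quartile scaling, DESeq2 1.42.0, the exact test and filterByExpr of edgeR, a replicate block, junction tags only, a coverage of 10 or 50, adjustment over all types, the mean of replicates and each library left out.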

Additional observations from a re-analysis of the deposited data

How the results depend on the processing

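No member was called by level under any of the 9 alternatives run. The exact test of edgeR called 0 list genes and 57 of all genes, and filterByExpr 0 and 11, beside 1 and 110. At an unadjusted p below 0.05, both had 7 list genes, beside 1207 of 18834 and 1410 of 15447 genes tested. With each library left out in turn, 0 to 4 list genes and 0 to 428 of all genes were called (11 without the first control, 0 without the second, with 966 at an unadjusted p below 0.05 in edgeR, 428 without the first *Qk* cKO library and 68 without the second). The lone library of a group was assumed to vary like the other group. The log2 fold change changed sign in *Cdh4* (-0.158 to 0.011), *Ctnnb1* (-0.039 to 0.024), *Ctnna1* (-0.0097 to 0.076), *Ctnna2* (-0.071 to 0.050) and *Vcl* (-0.012 to 0.119) when a library was left out. The change of inclusion changed sign in the *Ctnnb1* event (-0.246 to 0.185 points), in the 118-nt (-9.04 to 6.62), 289-nt (-1.72 to 3.39) and 182-nt (-2.35 to 4.54) exons of *Ctnnd1*, and in the 45-nt (-10.2 to 5.39) and 36-nt (-2.03 to 10.9) exons of *Mllt4*. Between 1 and 3 member events and 488 to 722 of all events were called (488 without the first control, 722 without the second, 648 without the first *Qk* cKO library, 583 without the second). The edgeR interaction test called 0 member events and 64 of all events, with 2 and 824 at an unadjusted p below 0.05. The cause of these differences was not tested. A search for the QKI motif in windows of intron sequence was not run.

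The labels do not say that a replicate number marks a shared litter or day, and the sources used here call the embryos littermates but tie no number to a litter. Samples with the same number deviated together over 12928 genes (correlation 0.303) but not over the 12442 autosomal genes among them (-0.081) or over 11496 events (-0.014). Blocking on this number (replicate block), edgeR called 0 members, 2 list genes (*Pvrl3*, FDR 0.0227, and *Tcf7l2*, FDR 0.034) and 192 of all genes. The Cochran-Mantel-Haenszel test with this block called 2 member events and 739 of all events.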
